A study of Homo sapiens with 4 samples.

Results

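The integrated stress response was followed here through chromatin accessibility at 10 of its genes: the transcription factor genes ATF4, DDIT3, ATF3 and ATF5, the target genes TRIB3, ASNS and CHAC1, the phosphatase subunit gene PPP1R15A, and the kinase genes EIF2AK3 and EIF2AK4. A peak was assigned to a gene when it overlapped the gene body, or the 10 kb on either side of it, by at least 1 bp in the GENCODE 44 annotation lifted to GRCh37 (hg19). This gave 50 of the 139872 consensus peaks. Of these, 35 passed the filter on low counts, as 82558 of all peaks did. A promoter peak is one within 1 kb of a start of a protein-coding transcript of the gene. There were 17 such peaks, 16 of them tested, and every one of the 10 genes had at least 1 tested promoter peak. The other 33 peaks included 19 tested ones.

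The measurements came from ATAC-seq, in which a transposase cuts accessible DNA, on SEM cells, an MLL-rearranged B cell precursor leukemia line. All cells carried lentiviral dCas9-KRAB, a Cas9 without nuclease activity that is fused to a repressor domain, with a blasticidin resistance cassette (BSD). Of the 4 libraries, 2 carried sgFLT3-DE-1, a guide against a HOXA9-bound distal enhancer of FLT3, and 2 carried sgNT, a non-target control guide. Guide-carrying cells were selected as a puromycin-resistant pool per the study's supplementary notes, and the labels do not say whether libraries of 1 guide came from separate cultures, so p-values measure only the spread between these libraries.

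In the integrated stress response, several kinases, among them PERK (EIF2AK3), which senses unfolded protein in the endoplasmic reticulum, and GCN2 (EIF2AK4), which senses uncharged tRNA, phosphorylate the translation factor eIF2. General translation then falls, while the mRNA of ATF4 is translated more. ATF4 and its partners bind C/EBP-ATF response elements (CAREs) at genes such as DDIT3, which encodes CHOP, and ATF3, TRIB3, ASNS and CHAC1, and GADD34 (PPP1R15A) closes the loop by directing a phosphatase to eIF2. ATAC-seq reads neither eIF2 phosphorylation nor ATF4 protein, and in bulk libraries fewer cells with an accessible site and less accessibility per cell cannot be told apart.

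Total counts ranged from 2683477 to 4831164 per library, with both sgNT libraries below both sgFLT3-DE-1 libraries, and counts between libraries of 1 guide varied by more than counting error (chi-square over degrees of freedom 2.76 for sgFLT3-DE-1 and 1.66 for sgNT). At the peak that holds the guide's target, chr13:28842815-28843351, CPM (the standard depth-normalised count, here against a TMM-adjusted library total) was 66.1 and 74.7 in sgFLT3-DE-1 cells against 126 and 140 in sgNT cells. The fitted log2 difference there was -0.92 (SE 0.264), with an adjusted p of 1.0 by edgeR, and with loess offsets in place of TMM scaling it was -0.87 with an adjusted p of 0.0392. Promoter peaks were present for 8 of 10 B cell precursor markers, with CD79A and BLNK lacking one, for 2 of 6 T cell, 4 of 6 myeloid and 0 of 6 erythroid markers. Their summed CPM was 132 and 185 in sgFLT3-DE-1 cells against 156 and 188 in sgNT cells for the B cell precursor list. It was 19.2 and 13.7 against 10.0 and 14.8 for the T cell list and 15.1 and 19.2 against 13.4 and 12.4 for the myeloid list, and the part of these differences in the results that follow was not tested.

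The element through which ATF4 acts was searched for as TGATGNAA on both strands. In windows from 250 bases before to 50 bases after the canonical start, 3 of the 10 genes (ATF3, CHAC1 and ASNS) held a match, against 2.48% of 19515 protein-coding promoter windows of the same length. The cAMP response element (CRE) TGACGTCA occurred in 1 of 10 windows, that of PPP1R15A, and in 2.71% of all windows. The unfolded protein response element TGACGTGG occurred in 0 of 10 windows and in 0.81% of all. The AP-1 motif TGANTCA occurred in 2 (DDIT3 and EIF2AK4) against 5.42%, the CCAAT box in 3 (CHAC1, DDIT3 and EIF2AK3) against 36%, the ETS motif CCGGAAGT in 1 (DDIT3) against 6.14%, and the SP1 box GGGCGG in 6 against 61.8%. No CARE or CRE match inside a peak overlapped another of these motifs. A match is a description of letters and not evidence of binding.

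The accessible matches are shown because they are the sequences in these peaks that carry the pathway's own element. All are from the GRCh37 reference, in the direction of the gene, with the match in capitals, and stretches in exons are kept short. The ATF3 peak over the canonical start held a match that begins 203 bases before the start, outside all annotated exons (chr1:212781840-212781967, plus strand), and another that begins 21 bases before it (chr1:212782071-212782100, plus strand), in an annotated exon.
ATF3 upstream: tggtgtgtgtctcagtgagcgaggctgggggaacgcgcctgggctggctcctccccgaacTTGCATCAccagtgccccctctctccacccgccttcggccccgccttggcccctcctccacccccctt
ATF3 at the start: tataaaaggggTGATGCAAcgctctccaag
The DDIT3 peak over the canonical start held 1 match, 306 bases upstream and outside exons (chr12:57914536-57914624, minus strand). The promoter peaks of ASNS (chr7:97501770-97501799, minus strand, 68 bases upstream of the canonical start) and CHAC1 (chr15:41245449-41245478, plus strand, 209 bases upstream) held 1 each, both in annotated exons.
DDIT3 upstream: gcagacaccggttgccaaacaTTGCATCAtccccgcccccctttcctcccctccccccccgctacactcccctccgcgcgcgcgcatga
ASNS: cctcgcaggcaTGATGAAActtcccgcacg
CHAC1: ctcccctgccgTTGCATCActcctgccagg
TRIB3 had the most matches. A pair lay in exon 1 (chr20:361559-361587 and chr20:361591-361620, plus strand), 33 bases apart, in stretches that share 29 identical bases, and another lay in intron 1 (chr20:362783-362812, plus strand). The untested peak 18.1 kb upstream held a further one. PPP1R15A had no CARE match in its peaks, and its promoter peak held the CRE (chr19:49375609-49375638, plus strand), 58 bases before the canonical start.
TRIB3 exon 1, first: tagctccggtTTGCATCAcccggaccggg
TRIB3 exon 1, second: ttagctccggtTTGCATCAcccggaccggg
TRIB3 intron 1: gcgcttgcgctTGATGTAAcccgccctcat
PPP1R15A: gcctctcttcgTGACGTCAgcacgccgggc
The peaks of ATF4, ATF5, EIF2AK3 and EIF2AK4 held no match of either element.

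Accessibility differed widely between these promoters. Levels are compared per kb of peak, as CPM per kb in the sgNT libraries (mean ± SD, n = 2). Over the 18160 tested protein-coding promoter peaks the median was 44.1 CPM per kb, with quartiles of 29.2 and 68.3. The peak over the start of EIF2AK3 stood highest among the members, at 200 ± 3.07 CPM per kb, above 98.6% of promoter peaks. The peak at another EIF2AK3 start that is shared with RPIA had 178 ± 13.2. The start peaks of ATF3 (115 ± 2.65), DDIT3 (102 ± 17.5) and ASNS (84.6 ± 2.33) followed, with neighbours in this order apart by less than the SD of DDIT3. These 5 peaks all stood above the upper quartile, at 83.5% of promoter peaks or more. EIF2AK4 had 66.4 ± 13.9, CHAC1 47.0 ± 8.02, ATF4 44.2 ± 9.26 and PPP1R15A 35.2 ± 11.4. EIF2AK4 and CHAC1 differed by more than either SD. The order among CHAC1, ATF4 and PPP1R15A is not resolved, since neighbours differed by less than their SDs. Of the secondary promoter peaks, that of EIF2AK3 had 107 ± 23.6, that of ATF3 64.7 ± 29.5, the one between DDIT3 and MBD6 40.7 ± 2.99, and those of ATF5 37.8 ± 6.72 and 19.0 ± 7.72. TRIB3 had the lowest tested promoter peaks, at 17.8 ± 2.82 and 15.9 ± 15.6, above only 6.07% and 3.9% of promoter peaks, and no peak covered its canonical start. Of the 10 genes, 7 had a peak over the canonical start. The exceptions were ATF4, TRIB3 and ATF5, whose tested promoter peaks lay 0.48 kb upstream, 0.26 and 1.26 kb downstream, and 0.31 and 0.77 kb downstream of it, measured to the peak centre.

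**Figure D1:**
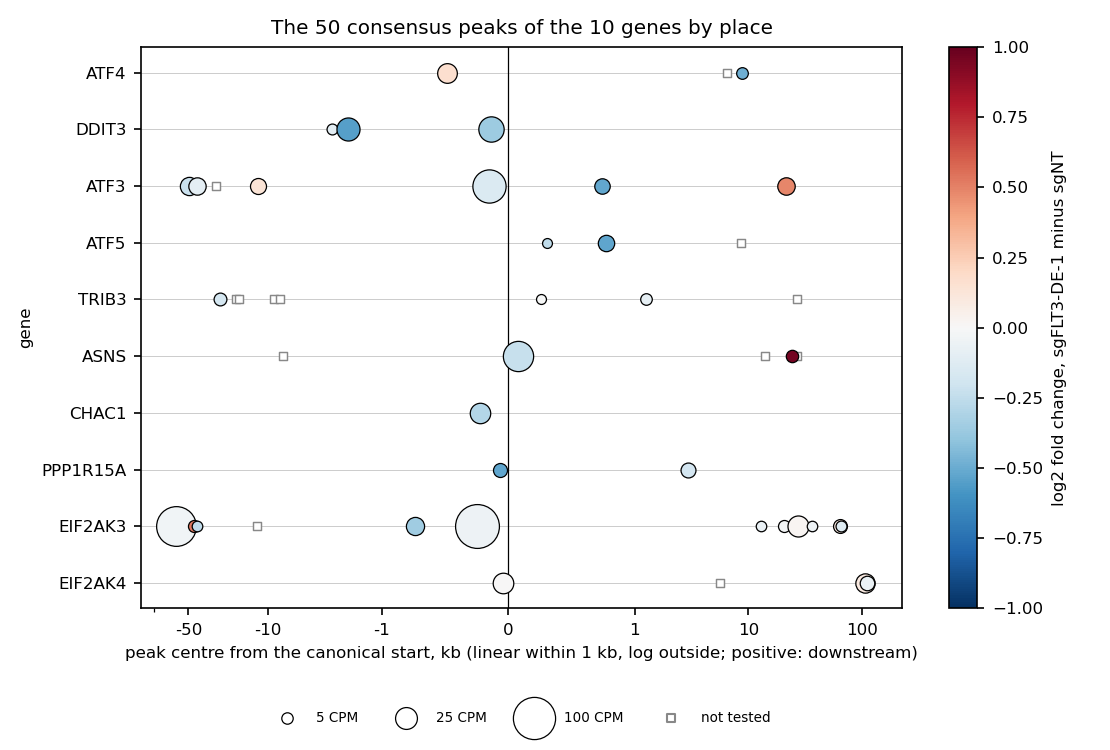
The 50 consensus peaks of the 10 genes by the distance of their centre from the canonical start (horizontal axis, kb, linear within 1 kb and logarithmic outside), with 1 row per gene. Circle area grows with the mean normalised CPM over the 4 libraries, colour gives the log2 fold change of sgFLT3-DE-1 over sgNT, and squares are peaks below the count filter. EIF2AK3 has the largest circles, CHAC1 has 1 peak, and most TRIB3 peaks are squares.

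The comparison of guides asked whether accessibility at these genes moved when the FLT3 enhancer was repressed. None of the 35 tested peaks passed FDR 0.05 by edgeR's quasi-likelihood test with Benjamini-Hochberg adjustment over all tested peaks (adjusted p = 1.0 at each), and none did with DESeq2 or limma-voom. Over all tested peaks 0.00242% passed. The guide's own target peak, at a log2 difference of -0.92 on 214 to 378 counts per library, did not pass by edgeR either. A change of that size at a member peak could thus go uncalled, and the lack of calls does not show that accessibility was unchanged. In the fit without the block, 2 member peaks of 35 had an unadjusted p under 0.05 by edgeR, 1 lower at DDIT3 and 1 higher beside ASNS, against 1.9% of all tested peaks. Estimates at the promoters lay mostly below 0: 14 of 16 promoter peaks had a log2 fold change below 0, and their median was -0.24. The median was -0.09 over all protein-coding promoter peaks, of which 62.7% were below 0, and 0.01 over all tested peaks. Both sgFLT3-DE-1 libraries lay below both sgNT libraries at 6 of the 16 promoter peaks and above both at 0, while 13.8% of all tested peaks were below and 13.7% above in this sense. Among protein-coding promoter peaks the shares were 23.3% below and 7.7% above.

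**Figure D2:**
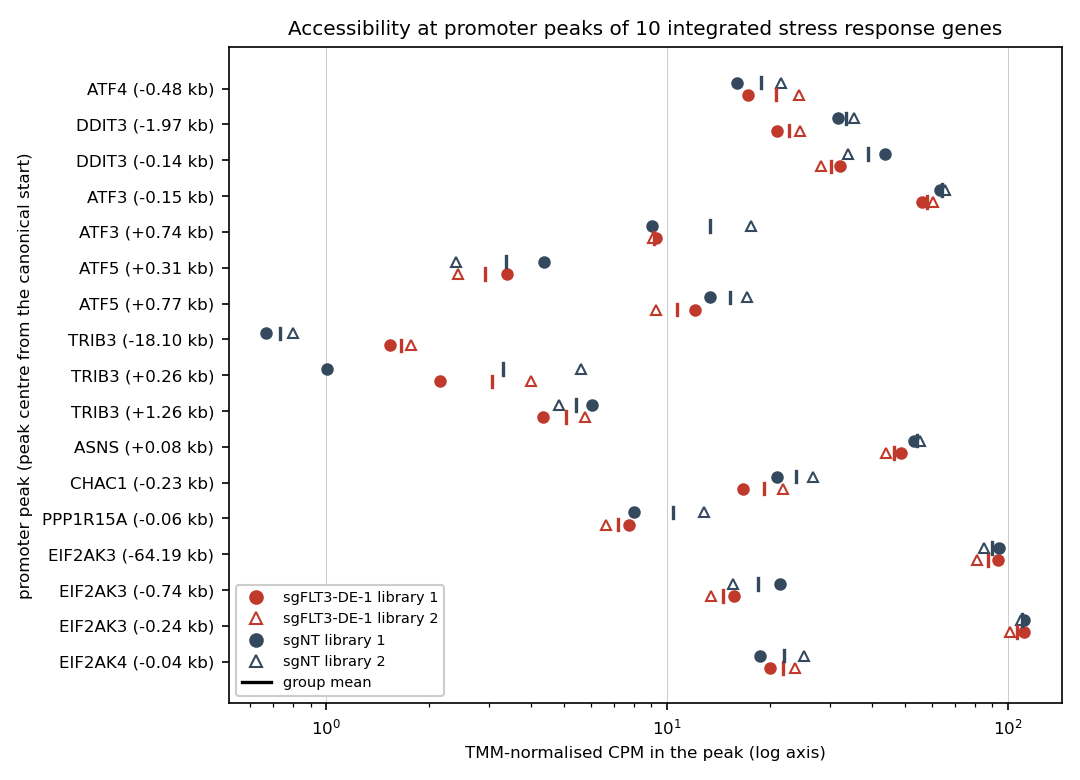
Normalised CPM (horizontal log axis) in each of the 4 libraries at the 17 promoter peaks of the 10 genes, named by gene and by the distance of the peak centre from the canonical start. Circles are libraries numbered 1, open triangles libraries numbered 2, and short bars group means. At both DDIT3 peaks, the start peaks of ATF3, ASNS and PPP1R15A and the ATF5 peak at 0.77 kb, the sgFLT3-DE-1 libraries lie below the sgNT libraries.

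Among the transcription factors, ATF4, the central effector of the response, had 1 promoter peak, at chr22:39915874-39916299, which lies upstream of the canonical start, holds no start of a coding transcript and overlaps an annotated UTR. Normalised CPM was 17.3 and 24.3 in sgFLT3-DE-1 cells against 16.04 and 21.6 in sgNT cells. The groups overlapped, and the log2 fold change of 0.17 (SE 0.287) was the highest of the 16 promoter estimates. A small peak centred 8.83 kb past the start, at chr22:39925292-39925494 in the body of RPS19BP1, had 3.40 and 5.31 against 5.01 and 7.61 (log2 fold change -0.49, SE 0.448), and its groups overlapped too.

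DDIT3, which encodes the pro-apoptotic factor CHOP, had its promoter peaks in sequence shared with a divergent neighbour. The peak over the canonical start, chr12:57914244-57914624, also lies at promoters of MBD6, a gene of a methyl-CpG-binding domain protein, and of an annotated gene without a symbol, ENSG00000285133. It had 32.1 and 28.3 CPM in sgFLT3-DE-1 cells against 43.4 and 34.0 in sgNT cells. All sgFLT3-DE-1 values were the lower ones, with a log2 fold change of -0.37 (SE 0.256). The longest member peak, 823 bp at chr12:57915859-57916681, is centred 1.97 kb upstream and covers a start of MBD6. It had 21.0 and 24.5 CPM against 31.8 and 35.2. Neither library overlapped the other group, and the log2 fold change of -0.55 (SE 0.259, unadjusted p = 0.0434 and adjusted p = 1.0 by edgeR) was the lowest promoter estimate. Whether this peak belongs to DDIT3 or to MBD6 cannot be told apart from its position. Another peak in the body of MBD6, chr12:57916949-57917065, had few counts (10 to 21 per library) and a log2 fold change of -0.10 (SE 0.477). Summed over the 3 peaks of the DDIT3 window, CPM was 56.8 and 57.5 in sgFLT3-DE-1 cells against 80.2 and 73.3 in sgNT cells, a ratio of means of 0.745. Over the windows of the 10 genes this ratio ran from 0.727 at ATF5 to 1.05 at TRIB3.

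ATF3, a stress-induced transcription factor, had its main peak over the canonical start, chr1:212781673-212782232, with 55.9 and 60.1 CPM in sgFLT3-DE-1 cells against 63.2 and 65.3 in sgNT cells (log2 fold change -0.14, SE 0.252). The groups did not overlap, but the gap between them was small. The peak in intron 1, chr1:212782743-212782948, had 9.27 and 9.07 against 9.02 and 17.6, so the groups overlapped and the second sgNT value stood apart from the other 3 (log2 fold change -0.52, SE 0.351). The estimate was -0.0031 without sgNT library 2 and -0.95 without sgNT library 1. A peak 21.5 kb past the start and downstream of the gene's canonical transcript, chr1:212803496-212803802, went the other way. Its values were 16.4 and 18.8 CPM in sgFLT3-DE-1 cells against 13.03 and 12.0 in sgNT cells, which do not overlap (log2 fold change 0.49, SE 0.298). Far upstream, a CRE-holding peak at chr1:212732082-212732551 in the body of RP11-61J19.4 had 16.1 and 14.8 against 18.4 and 17.6 (-0.23, SE 0.286). The other tested upstream peaks had estimates of -0.10 (SE 0.316, chr1:212740368-212740744) and 0.14 (SE 0.325). The ATF3 window thus held estimates of both signs, and its summed CPM overlapped between the groups, at 126 and 140 against 128 and 150.

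ATF5, which takes part in the mitochondrial arm of the stress response, shares its promoter region with IL4I1, an amino acid oxidase gene, and NUP62, a nucleoporin gene. The larger peak, chr19:50433033-50433437 in intron 1, had 12.0 and 9.29 CPM in sgFLT3-DE-1 cells against 13.4 and 17.2 in sgNT cells. Its groups did not overlap, with a log2 fold change of -0.52 (SE 0.318). The smaller one, chr19:50432679-50432856, overlaps starts of IL4I1 and NUP62 and had 6 to 13 counts per library, with 3.40 and 2.43 against 4.34 and 2.40 CPM. Its estimate was -0.26 (SE 0.591). The 7 promoter peaks of the 4 transcription factors had a median log2 fold change of -0.37, and 6 of them were below 0.

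Among the target genes, ASNS encodes asparagine synthetase, a classic ATF4 target. Its start peak, chr7:97501323-97501963, which also lies in the body of ENSG00000284707, had 48.5 and 44.003 CPM in sgFLT3-DE-1 cells against 53.1 and 55.3 in sgNT cells. The groups did not overlap, and the log2 fold change was -0.23 (SE 0.251). A small peak past the 3' end of the gene, chr7:97477165-97477463, 24.4 kb from the start, had 36 and 26 counts in sgFLT3-DE-1 cells against 12 and 11 in sgNT cells, or 11.1 and 5.75 against 4.01 and 4.40 CPM. It had the highest estimate of all member peaks (log2 fold change 0.97, SE 0.442, unadjusted p = 0.0357 and adjusted p = 1.0 by edgeR), and its own sgFLT3-DE-1 libraries differed more from each other than library 2 did from the sgNT libraries.

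CHAC1, a glutathione-degrading enzyme gene, had a single peak in its window, over its start at chr15:41245190-41245698. CPM was 16.7 and 21.9 in sgFLT3-DE-1 cells against 21.1 and 26.8 in sgNT cells, and the groups overlapped (log2 fold change -0.29, SE 0.277). TRIB3, a pseudokinase gene that ATF4 and CHOP induce, had 3 promoter peaks, all small. The exon 1 peak with the paired CARE matches, chr20:361559-361766, had 7 and 18 counts against 3 and 14, and its log2 fold change of -0.00 had an SE of 0.648. At these counts no difference smaller than 2 standard errors, from -1.30 to 1.30, was detectable. The intron 1 peak, chr20:362515-362818, had 4.32 and 5.75 CPM against 6.02 and 4.805 (-0.09, SE 0.439). The peak near an upstream start of TRIB3, chr20:343235-343370, had 5 and 8 counts against 2 and 2, fell below the filter and was not tested. A peak 26.1 kb upstream in NRSN2, chr20:335208-335418, had -0.18 (SE 0.401), and an untested one centred 26.7 kb past the start lay at the promoter of RBCK1. The 4 tested promoter peaks of the target genes had a median of -0.16.

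PPP1R15A encodes GADD34, the subunit that directs a phosphatase to eIF2. Its start peak, chr19:49375468-49375763, which holds the CRE, had 7.72 and 6.63 CPM in sgFLT3-DE-1 cells against 8.02 and 12.8 in sgNT cells. These values do not overlap, but library 1 of each guide lay close together, and the log2 fold change was -0.53 (SE 0.369). The peak in intron 2, chr19:49378472-49378811, had 5.87 and 13.05 against 8.36 and 14.01 (-0.19, SE 0.377).

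At the kinase genes the largest promoter peaks had estimates near 0. At the start of EIF2AK3, chr2:88926951-88927501, also the start of the divergent transcript EIF2AK3-DT, CPM was 112 and 101 in sgFLT3-DE-1 cells against 111 and 109 in sgNT cells. The log2 fold change was -0.05 (SE 0.262), and 2 standard errors either side spanned -0.58 to 0.47. The start shared with RPIA, a ribose 5-phosphate isomerase gene, at chr2:88990924-88991425, had 93.3 and 81.4 against 94.3 and 84.9 (-0.04, SE 0.259). Both are among the best counted member peaks (212 to 457 counts per library). The small peak just upstream, chr2:88927633-88927805, had 15.8 and 13.5 against 21.4 and 15.6 (-0.35, SE 0.294). Within the gene, an intron 2 peak at chr2:88899638-88899958 had 25.6 and 20.8 against 22.4 and 23.2 (0.02, SE 0.269). An intron 14 peak at chr2:88862738-88863001, also in the body of ENSG00000225420, had 0.09 (SE 0.364), and one 44.5 kb upstream at chr2:88971373-88971577 had 0.53 (SE 0.46) on 8 to 38 counts. The other 5 tested peaks of EIF2AK3 had estimates from -0.25 to -0.02.

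EIF2AK4 had 1 promoter peak, over its start at chr15:40226108-40226438, with 20.1 and 23.7 CPM in sgFLT3-DE-1 cells against 18.7 and 25.2 in sgNT cells. The log2 fold change was 0.01 (SE 0.275), from -0.54 to 0.56 at 2 standard errors. The peaks past its 3' end lie at SRP14, a signal recognition particle gene, and its divergent transcript SRP14-DT. The one at the SRP14 start, chr15:40331267-40331596, had 0.09 (SE 0.283), and the one in SRP14-DT, chr15:40337365-40337582, had -0.07 (SE 0.348). The 4 kinase promoter peaks had a median of -0.05, against -0.37 for the transcription factors, and the difference between roles was not tested. The DDIT3 and ATF5 peaks in the latter also lie at promoters of other coding genes, as does the EIF2AK3 peak shared with RPIA.

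**Figure D3:**
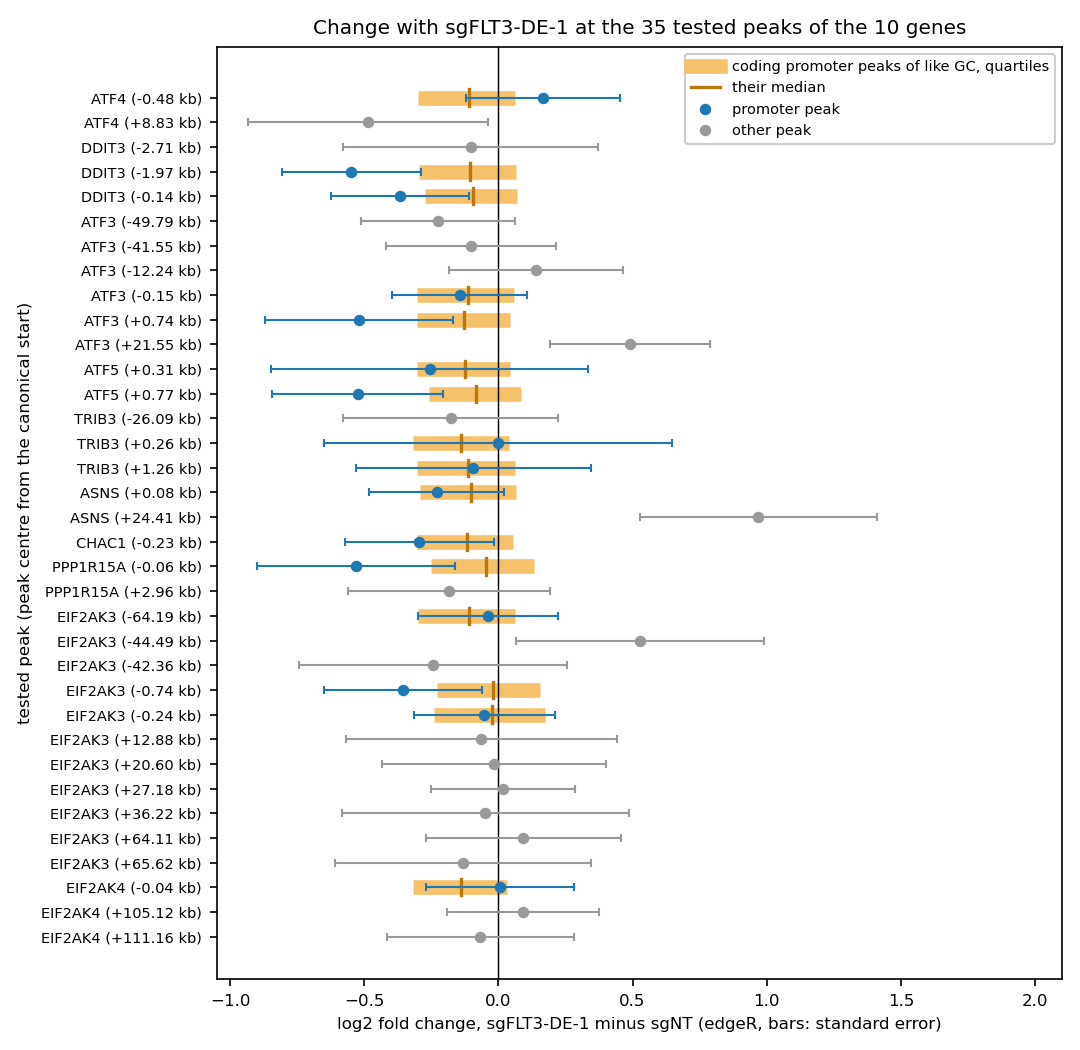
Log2 fold change of sgFLT3-DE-1 over sgNT with its standard error (horizontal axis) at the 35 tested peaks of the 10 genes, promoter peaks in blue and other peaks in grey. The bands behind promoter peaks are the quartiles, and the ticks the medians, of protein-coding promoter peaks of GC content within 2 percentage points. Most error bars reach 0, and the highest estimate is the peak downstream of ASNS at 0.97.

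Since promoter peaks are rich in G and C and their estimates fell as GC content rose, each member was set beside promoter peaks of like GC content. Over all protein-coding promoter peaks the median log2 fold change was 0.07 in peaks of 40 to 45% GC and -0.16 in those of 75 to 80%. The member promoter peaks had a median GC content of 66.7%, from 54.3 to 73.6%. For each, the promoter peaks of other genes within 2 percentage points numbered 1259 to 3025, with medians from -0.14 to -0.02. The member lay below its like-GC median in 11 of 16 cases and above it in 5. It lay below the lower quartile in 6 and above the upper quartile in 1, ATF4. The median difference was -0.13, and differences ran from -0.48 at PPP1R15A to 0.27 at ATF4. That median was -0.063 without sgNT library 1, -0.084 without sgNT library 2 and -0.073 over peaks averaging 50 counts or more. The lowest placed were PPP1R15A, where 7.07% of like-GC peaks were as low or lower, the larger ATF5 peak (7.1%), the MBD6-side DDIT3 peak (8.17%) and the intron 1 peak of ATF3 (9.17%), whose estimate rested on sgNT library 2. At PPP1R15A and the larger ATF5 peak, the sgFLT3-DE-1 to sgNT ratio was 0.963 and 0.901 between libraries numbered 1. Between libraries numbered 2 it was 0.518 and 0.539. The like-GC peaks were matched on GC content and not on count. After a GC correction of the counts the median of the 16 was -0.12 and that of like-GC promoters 0.01.

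**Figure D4:**
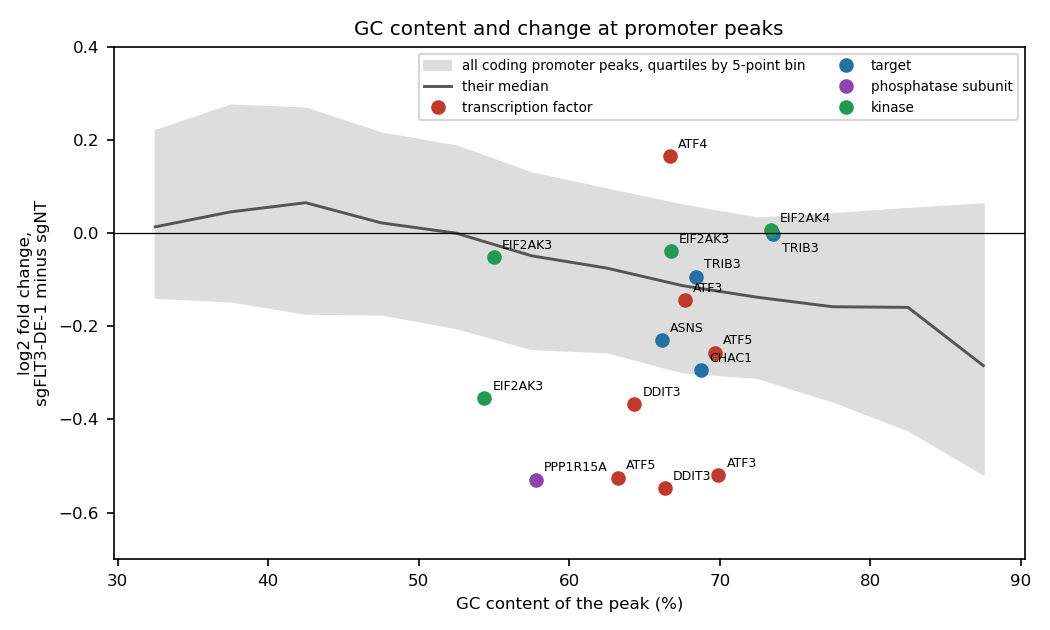
GC content of each peak (horizontal axis, %) against log2 fold change of sgFLT3-DE-1 over sgNT (vertical axis) for the 16 tested promoter peaks, coloured by role, over the median and quartiles of all protein-coding promoter peaks in bins of 5 percentage points. The median of all promoter peaks falls from 0.07 at 40 to 45% to -0.16 at 75 to 80%, and 6 member peaks lie below the lower quartile of like-GC peaks.

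The members' median was smaller in size under several choices. It was -0.14 over the 11 peaks that lie at no other coding gene's promoter, 9 of them below 0, and -0.19 over 1 peak a gene, 8 of 10 below 0. With a mean count of at least 50 it was -0.16 over 10 peaks. The 6 tested promoter peaks with a CARE match were all below 0, with a median of -0.19, although the GC correction turned the TRIB3 exon 1 and intron 1 peaks to 0.16 and 0.017, and limma-voom the exon 1 peak to 0.58, and the 10 without one had -0.31, while all promoter peaks with and without a match both had -0.09. The 19 tested member peaks outside a member's own promoter, which include peaks at the SRP14 and MBD6 promoters, had a median of -0.06. Of these, 12 were below 0, 1 had both sgFLT3-DE-1 libraries below both sgNT libraries and 2 had them above. The sign of that median was not stable, at 0.094 without sgNT library 2, 0.023 without sgFLT3-DE-1 library 1, 0.088 over peaks averaging 50 counts or more and -0.21 without sgFLT3-DE-1 library 2. Over all tested peaks at no coding gene's promoter, a set defined more strictly, the median was 0.05, with shares of 11.1% below and 15.5% above.

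Other genes of the pathway were examined as 91 genes in 8 roles. Of these, 83 had a tested promoter peak, and ATF6B, BBC3, CBS, EIF2D, FGF21, HYOU1, IMPACT and NUPR1 had none. No peak of the 146 passed FDR 0.05 by edgeR, DESeq2 or limma-voom, and all 6 with an unadjusted p under 0.05 had estimates below 0. These were 4.11% of the peaks, against 2.82% of all protein-coding promoter peaks, where 459 of 513 were likewise lower. The median log2 fold change was -0.15, with 109 of 146 (74.7%) below 0 against 62.7% of all protein-coding promoter peaks, and -0.04 after the GC correction. Medians by role ran from -0.22 for other ATF4 and CHOP outputs and -0.20 for partner transcription factors to -0.08 for aminoacyl-tRNA synthetases and -0.02 for serine, one-carbon and amino acid synthesis.

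Among these genes the lowest estimate was at SLC38A2, an amino acid transporter, where a 96 bp peak at chr12:46767325-46767420 had 5 and 12 counts in sgFLT3-DE-1 cells against 22 and 13 in sgNT cells (log2 fold change -1.53, SE 0.516). The other tested promoter peaks of SLC38A2, all better counted, had estimates of -0.18, -0.33 and -0.03. CRELD2, an endoplasmic reticulum stress-induced gene that shares the peak with ALG12, had 13.3 and 13.3 CPM against 24.4 and 26.8 (-0.94, SE 0.279). CEBPB, a partner of ATF4, had 8.96 and 13.05 against 18.0 and 21.2 (-0.81, SE 0.304). At the lowest SLC38A2 peak and the CRELD2 and CEBPB peaks, named for the smallest p of their roles, the groups did not overlap, and the adjusted p was 1.0 by edgeR. Both sgFLT3-DE-1 libraries lay below both sgNT libraries at 34.2% of the 146 peaks and above both at 4.11%. Among all protein-coding promoter peaks these shares were 23.3% and 7.7%. At KLHL24 the lowest peak had 11 to 24 counts per library (-1.14, SE 0.414), and the better counted peaks had -0.23 and -0.07. KLHL24, PPP1CA, the catalytic phosphatase subunit that GADD34 recruits (-1.07, SE 0.556), SARS1 (-0.54, SE 0.34), EIF2A (-0.38, SE 0.255) and ALDH1L2 (-0.31, SE 0.304) had the smallest p among lower peaks of their roles. On the higher side these were GCN1, a co-activator of GCN2 (0.49, SE 0.367), ERO1A (0.36, SE 0.278), EIF2B3 (0.31, SE 0.295), MAFG (0.23, SE 0.526), PHGDH, the first enzyme of serine synthesis (0.20, SE 0.261), MARS1 (0.17, SE 0.299), SLC7A11, the cystine transporter (0.14, SE 0.282), and SEL1L (0.12, SE 0.296).

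**Figure D5:**
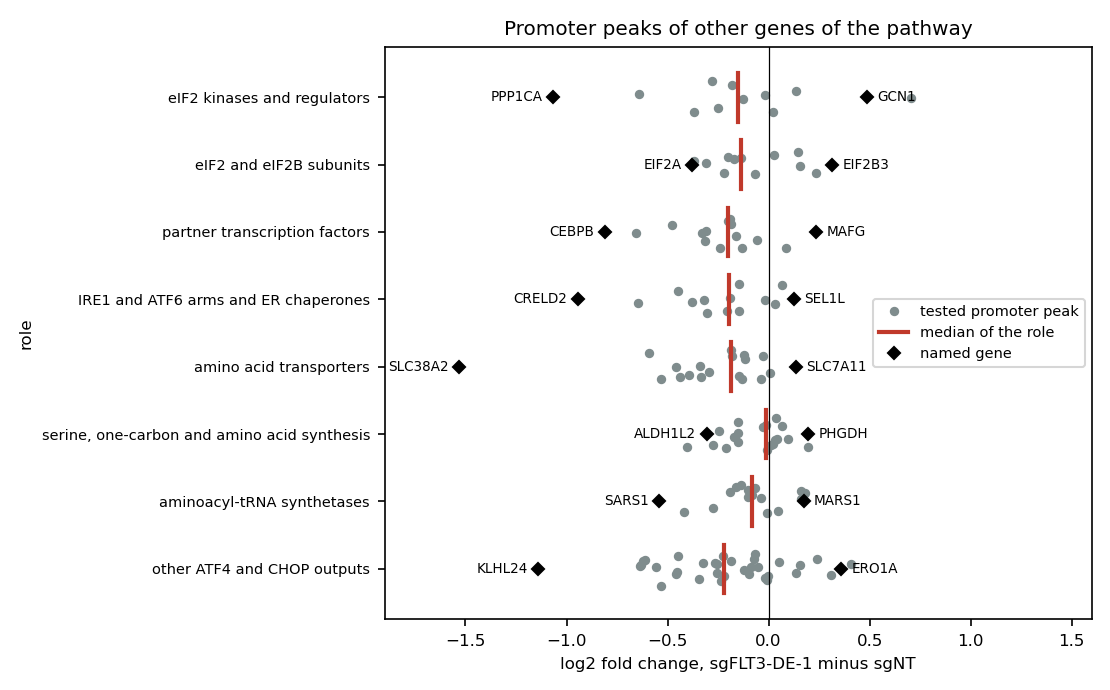
Log2 fold change of sgFLT3-DE-1 over sgNT (horizontal axis) at the 146 tested promoter peaks of other pathway genes, with 1 row per role. Dots are peaks, diamonds the genes named in the text and vertical bars role medians. The medians run from -0.22 to -0.02, and the lowest is a low-count peak of SLC38A2 at -1.53.

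The CARE letters were unevenly spread over the roles. In promoter windows of equal length, 8 of 13 genes of the aminoacyl-tRNA synthetase list (AARS1, CARS1, GARS1, IARS1, MARS1, NARS1, TARS1 and YARS1) held a match, as did 3 of 9 amino acid transporters (SLC1A4, SLC7A1 and SLC7A11) and 18 of 90 genes over all roles, against the 2.48% of all windows. The endoplasmic reticulum list had 1 of 13 (HERPUD1) and the kinase and regulator list 1 of 10 (PPP1R15B). The medians of accessible promoter peaks with and without a match over all roles were -0.13 and -0.17.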

How the data were processed

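Per the labels and the study's methods, the authors trimmed ATAC-seq reads, aligned them to hg19, called peaks with MACS2 on nucleosome-free fragments, merged the peaks reproducible within each guide into 1 set and deposited raw counts per peak and library. The methods and notes differ on the aligner (Bowtie2 or BWA), and no source used here says which fragments were counted. The submitters' processing notes name Trim Galore 0.4.4, SAMtools 1.2, bedtools 2.24.0 and MACS2 2.1.1.20160309. Because the peaks were defined on these libraries, absent peaks say only that none was called.

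Peaks were joined to GENCODE 44 lifted to GRCh37, and sequences were read from GRCh37. Counts were filtered with filterByExpr (at least 10 counts, total 15), scaled by TMM and tested over all 82558 peaks with edgeR 4.0.16 (quasi-likelihood, sgFLT3-DE-1 against sgNT, Benjamini-Hochberg) in R 4.3.3, and the fit was tested on simulated data. CPM used TMM library sizes, standard errors are the unshrunk log2 estimate over the square root of F, and intervals are 2 standard errors either side. Depth limits precision at low counts. For each gene every promoter peak and up to 3 further tested peaks of highest mean count were named, plus any at an unadjusted p under 0.05. For other pathway genes the peak of smallest p per role and direction was named. Their lists also hold EIF2A and EIF2D, which are no subunits of eIF2, and the tRNA exporter XPOT among the synthetases. The members, lists and tests were chosen with earlier results of these data known. The alternatives were other scalings, a GC correction, other filters, DESeq2 1.42.0, limma-voom (limma 3.58.1), the replicate number as a block, other windows and each library left out.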

Additional observations from a re-analysis of the deposited data

How the results depend on the processing

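The number of member peaks past FDR 0.05 was 0 under every alternative and window width run. Over all tested peaks, the 2 calls became 1 with total counts, 6 with loess offsets, 5 without a filter, 0 with a mean count of at least 50, 1 with DESeq2 and 0 to 9 with 1 library left out (0 without sgNT replicate 2, 9 without sgFLT3-DE-1 replicate 2). The replicate number used as a block gave 74 calls, 20 with the GC correction added, and 1 call among other pathway genes (CRELD2, -0.95, adjusted p = 0.0179 by edgeR), which was lost with the GC correction added (0 calls, CRELD2 adjusted p = 0.104 by edgeR). Same-numbered libraries deviated together (correlation 0.397 over the single comparison possible), and each of the 4 libraries correlated best with the same-numbered library of the other guide (0.915 and 0.922, against 0.875 and 0.887 within a guide). That is a hint from the data, since the labels do not say whether a number marks a shared batch. The target peak passed with loess offsets (-0.87), with the block (-0.92, adjusted p = 2.74e-10 by edgeR) and with the block and the GC correction (-0.99, adjusted p = 7.5e-05 by edgeR).

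The median of the member promoter peaks (-0.24) was -0.12 with the GC correction, -0.29 without a filter, -0.16 with a mean count of at least 50, -0.080 with the block and the GC correction, -0.19 with promoters within 2 kb, and -0.27 to -0.17 with 1 library left out. By alternatives chosen after seeing the data it was -0.14 without peaks at other coding promoters and -0.19 with 1 peak a gene. The median of the other pathway genes (-0.15) was -0.045 with the GC correction, -0.042 with the block added, and -0.25 to -0.13 with 1 library left out. The median difference from like-GC promoters (-0.13) was -0.094 with the block and -0.085 with the GC correction added. The cause of these moves was not tested.

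Estimates near 0 changed sign. With the GC correction these were TRIB3 exon 1 (0.16), TRIB3 intron 1 (0.017), EIF2AK3 intron 2 (-0.043) and the EIF2AK3 start shared with RPIA (0.10), and with the block added 0.037, 0.040, -0.041 and 0.091, with the DDIT3 peak 2.71 kb upstream at 0.012. TRIB3 exon 1 was 0.0086 with total counts and 0.58 with limma-voom, EIF2AK3 intron 2 was -0.044 without a filter, and the EIF2AK4 start was -0.055 without a filter, -0.0013 with DESeq2 and -0.0063 with the block. With 1 library left out, estimates spanned 0 at the peaks of ATF4 (-0.12 to 0.37), ATF3 41.5 kb upstream (-0.47 to 0.30), ATF5 smaller (-0.62 to 0.24), DDIT3 2.71 kb upstream (-0.30 to 0.064), TRIB3 in NRSN2 (-0.51 to 0.17), exon 1 (-0.83 to 1.59) and intron 1 (-0.34 to 0.074), PPP1R15A intron 2 (-0.91 to 0.23), and EIF2AK3 intron 14 (-0.13 to 0.30), intron 2 (-0.14 to 0.16), start (-0.13 to 0.0090), 44.5 kb upstream (-0.064 to 1.34) and at RPIA (-0.15 to 0.048). The same held for EIF2AK4 start (-0.21 to 0.20), SRP14 (-0.15 to 0.27) and SRP14-DT (-0.26 to 0.094), and for SEL1L (-0.28 to 0.43), SLC7A11 (-0.35 to 0.49) and MARS1 (-0.39 to 0.53). Of 607 alternative values at 45 named peaks, 559 kept their sign and side of the threshold. With 2 libraries a guide, a peak was resolved at best to within about 2 of the standard errors given above, which were largest at few counts.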
